A study of Mus musculus with 8 samples.

Results

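The 8 genes described here, Hmgcs1, Idi1, Fdps, Fdft1, Sqle, Lss, Cyp51 and Dhcr7, encode enzymes of cholesterol synthesis. They were chosen by name, and all 8 had a probe set whose platform annotation gives that symbol alone. They account for 11 of the 12422 probe sets tested, 4 of them for Fdps and 1 for each other gene. No gene of cholesterol uptake is among the 8. The cells were CD8+ dendritic cells, which present antigen to T cells in the spleen, purified from female DBA/2J mice aged 60 days. All mice had received 10 µg of Flt3 ligand for 9 days, which raises the number of dendritic cells. The cells were cultured for 16 hours with the cytokine interferon gamma (IFN-γ, mouse, 200 U/ml), in medium alone for 16 hours, with IFN-γ for 4 hours, or in medium alone for 4 hours. RNA was measured on 8 Affymetrix MG-U74Av2 arrays, 2 per group, and precision is limited by that number. The labels do not tell whether replicate arrays derive from separate animals or cultures, and the p-values reflect only the spread between arrays, which may be technical.

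Cholesterol is made from acetyl-CoA through mevalonate. The early enzymes make isoprenoid units, the middle ones join them to squalene, and the late ones close and trim the sterol ring. Isoprenoids made on the way also serve to anchor small GTPases in membranes. Most genes of the pathway are transcribed under SREBP-2, a membrane-bound factor released when sterol in the endoplasmic reticulum is low, and its relative SREBP-1, encoded by Srebf1, acts mainly on genes of fatty acid synthesis. In macrophages, interferon is known to lower sterol synthesis, in part through the oxysterol made by the enzyme of Ch25h.

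The arrays had median intensities of 51.3 to 53.7. Unspecific signal was gauged by 15 antisense control probe sets, whose median per array was 5.49 to 5.93 on the log2 scale. Of 11 measured markers of CD8+ dendritic cells, 8 exceeded this median on every array, Cd8a and Itgax among them, while Zbtb46 and Itgae were below it on every array and Xcr1 was above it on 1. Markers of other cells were above it on every array too, 9 of 13 for macrophages and monocytes, 5 of 6 for B cells, 6 of 7 for T cells and 7 of 7 for granulocytes. The IFN-γ arrays carried the response to the cytokine. Of 6 genes chosen as a check, Cxcl9, Irf1, Socs1, Iigp1, Igtp and Cxcl10, 5 rose at 16 hours (6 with the replicate number as a block in the fit) and 6 at 4 hours. Of all probe sets, 0.161% were called higher at 16 hours (0.411% with the block) and 0.258% at 4 hours.

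Fdps and Idi1 fell to less than 0.5 times their earlier intensity between 4 and 16 hours of culture, both with IFN-γ and in medium. Hmgcs1 and Fdft1 were lower at 16 hours on all arrays of both treatments, by 0.48 to 0.74 on the log2 scale. They did not pass the test over all probe sets in the fit without a block, and passed with the replicate number as a block. For Sqle, Lss, Cyp51 and Dhcr7 the differences lay between -0.34 and 0.04. IFN-γ against medium gave no call in any of the 8 genes at either time. In bulk samples such as these, fewer cells of a type and less RNA per cell cannot be told apart.

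**Figure D1:**
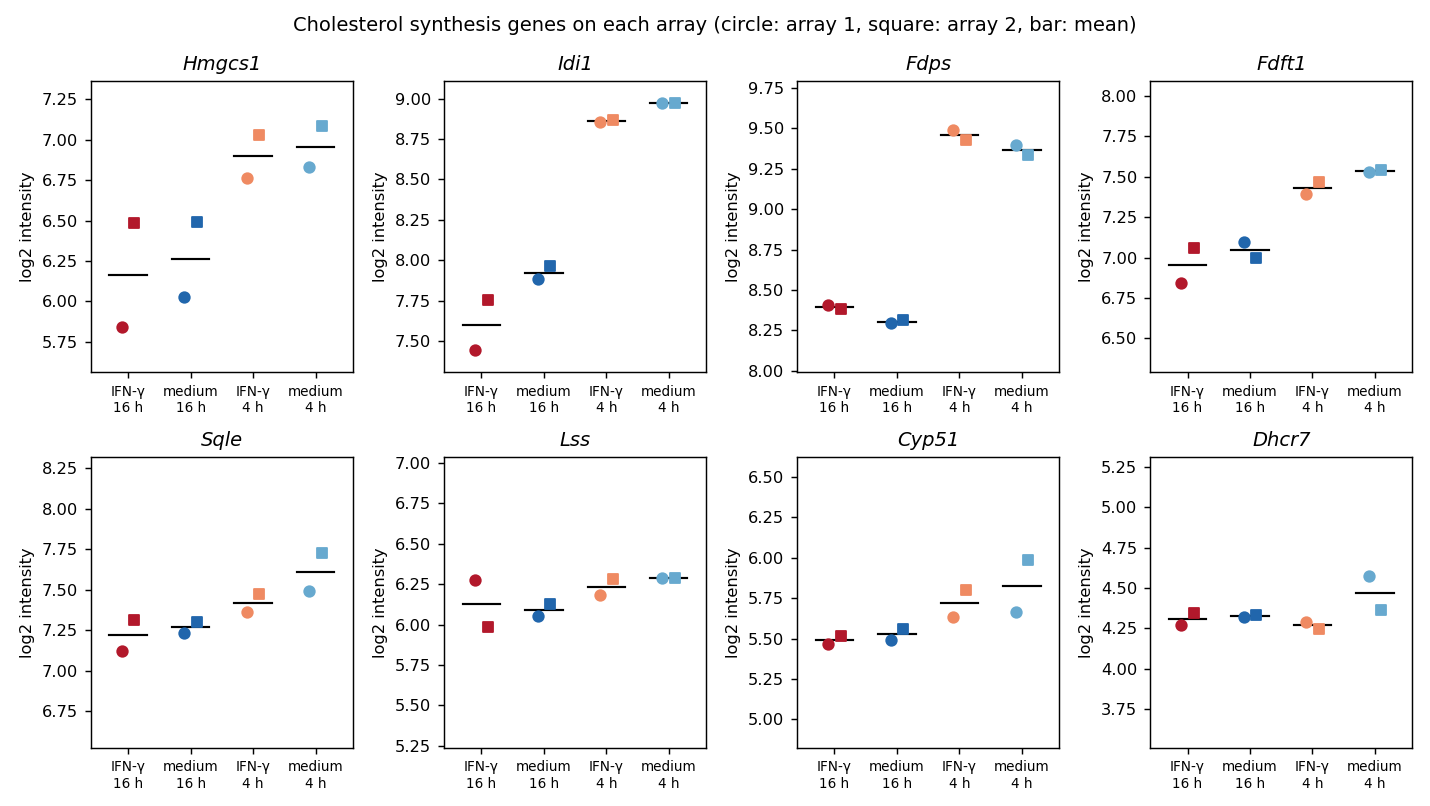
Log2 intensity of the brightest probe set of each gene (vertical axis, 1.8 log2 units in every panel) in the 4 groups (horizontal axis), with array 1 as a circle, array 2 as a square and the group mean as a bar. For Fdps, Idi1, Hmgcs1, Fdft1, Sqle and Cyp51, the 4 arrays at 16 hours lie below the 4 arrays at 4 hours.

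Hmgcs1 encodes the cytosolic synthase that makes HMG-CoA, an early step of the pathway. Its log2 intensity was 5.84 and 6.48 with IFN-γ at 16 hours and 6.03 and 6.49 in medium at 16 hours, against 6.76 and 7.03 with IFN-γ at 4 hours and 6.83 and 7.09 in medium at 4 hours. All 16-hour arrays were below all 4-hour arrays, but array 1 read 0.64 lower than array 2 with IFN-γ at 16 hours and 0.46 lower in medium at 16 hours, the widest replicate gaps of the 8 genes in these groups. The difference, 16 minus 4 hours, was -0.74 with IFN-γ (SE 0.23, adjusted p = 0.154) and -0.70 in medium (SE 0.23, adjusted p = 0.144), by limma and adjusted after Benjamini and Hochberg across all probe sets. With the replicate number as a block, which takes up the gap shared by arrays of one number, the adjusted p, called the blocked adjusted p from here on, was 0.00307 with IFN-γ and 0.00296 in medium.

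Idi1 encodes the isomerase that interconverts the isoprenoid building blocks, isopentenyl and dimethylallyl diphosphate. It read 7.44 and 7.75 with IFN-γ at 16 hours and 7.89 and 7.96 in medium at 16 hours, against 8.85 and 8.87 with IFN-γ at 4 hours and 8.97 on both arrays in medium at 4 hours. The 4 groups did not overlap, and their order from low to high was IFN-γ at 16 hours, medium at 16 hours, IFN-γ at 4 hours and medium at 4 hours. Idi1 fell by 1.26 with IFN-γ (95% interval -1.54 to -0.98, adjusted p = 0.00155), to 0.417 times its 4-hour intensity. In medium it fell by 1.05 (95% interval -1.33 to -0.77, adjusted p = 0.00275), to 0.483 times.

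Fdps encodes farnesyl diphosphate synthase, which supplies squalene synthesis as well as the prenylation of proteins. Its brightest probe set read 8.41 and 8.38 with IFN-γ at 16 hours and 8.29 and 8.31 in medium at 16 hours, against 9.49 and 9.43 with IFN-γ at 4 hours and 9.40 and 9.33 in medium at 4 hours. The time groups stood about 1 log2 unit apart, while replicate arrays of a group differed by less than 0.1. Fdps fell by 1.07 with IFN-γ (95% interval -1.30 to -0.83, adjusted p = 0.0015) and by 1.06 in medium (95% interval -1.29 to -0.83, adjusted p = 0.000988). This is 0.478 and 0.479 times the 4-hour intensity.

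Another 3 probe sets carry the name Fdps. The next brightest has the suffix that Affymetrix gives to probes shared by similar sequences, so its signal may come in part from related transcripts. It read 7.67 and 8.03 with IFN-γ at 16 hours and 7.71 and 7.83 in medium at 16 hours, against 8.85 and 8.96 with IFN-γ at 4 hours and 8.86 and 8.95 in medium at 4 hours. It also fell, by 1.06 with IFN-γ (adjusted p = 0.00712) and by 1.13 in medium (adjusted p = 0.00293). The other 2 lay between 2.14 and 4.01, below the antisense controls on every array, and differed by -0.13 to 0.25 between the times, so whether Fdps changed cannot be read from them.

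Fdft1 encodes squalene synthase, the first enzyme committed to sterols. It read 6.84 and 7.06 with IFN-γ at 16 hours and 7.10 and 6.998 in medium at 16 hours, against 7.39 and 7.47 with IFN-γ at 4 hours and 7.53 and 7.54 in medium at 4 hours. The times did not overlap in either treatment. The difference was -0.48 with IFN-γ (SE 0.12, adjusted p = 0.076, blocked adjusted p = 0.0139) and -0.48 in medium (SE 0.12, adjusted p = 0.0507, blocked adjusted p = 0.0108).

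Sqle encodes squalene epoxidase, an oxygen-dependent and rate-limiting step. It read 7.12 and 7.31 with IFN-γ at 16 hours and 7.23 and 7.30 in medium at 16 hours, against 7.36 and 7.47 with IFN-γ at 4 hours and 7.49 and 7.72 in medium at 4 hours. The differences were -0.20 with IFN-γ (adjusted p = 0.541) and -0.34 in medium (adjusted p = 0.197, blocked adjusted p = 0.0347). They were smaller than those of Hmgcs1, Idi1, Fdps and Fdft1, although the arrays of the 2 times did not overlap.

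Lss encodes lanosterol synthase, which closes the sterol ring. It read 6.27 and 5.99 with IFN-γ at 16 hours and 6.05 and 6.13 in medium at 16 hours, against 6.18 and 6.28 with IFN-γ at 4 hours and 6.29 on both arrays in medium at 4 hours. The times overlapped with IFN-γ and not in medium, with differences of -0.10 (95% interval -0.38 to 0.18) and -0.20 (95% interval -0.48 to 0.08).

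Cyp51, the sterol demethylase that acts on lanosterol, and Dhcr7, the reductase of the last step to cholesterol, gave weak signal. Cyp51 exceeded the antisense median on 2 of 8 arrays, and Dhcr7 on 0 of 8, so the size of their differences is uncertain. Cyp51 read 5.46 and 5.52 with IFN-γ at 16 hours and 5.49 and 5.56 in medium at 16 hours, against 5.64 and 5.80 with IFN-γ at 4 hours and 5.66 and 5.98 in medium at 4 hours. The times did not overlap, and the difference was -0.23 with IFN-γ (adjusted p = 0.508) and -0.30 in medium (adjusted p = 0.309). Dhcr7 lay between 4.25 and 4.57 on all arrays and differed by 0.04 with IFN-γ (adjusted p = 0.89) and by -0.14 in medium (adjusted p = 0.589).

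Counted over the 8 genes, 2 fell from 4 to 16 hours with IFN-γ, where 1.3% of all probe sets were called lower, and 2 fell in medium, where 2.57% were. None of the 8 was called higher, as 0.821% of all probe sets were with IFN-γ and 1.71% in medium. With the replicate block 4 of the 8 fell with IFN-γ, where 6.94% of all probe sets were called lower and 3.2% higher, and 5 fell in medium, where 8.09% were called lower and 4.52% higher. Both 16-hour arrays were below both 4-hour arrays in 6 of 8 genes with IFN-γ, against 17.7% of all probe sets, and in 8 of 8 in medium, against 20.8%. They were above them in 0 of 8 genes, against 21.6% of all probe sets with IFN-γ and 30.8% in medium. The median difference of the 8 genes was -0.35 with IFN-γ and -0.41 in medium, and that of all probe sets was 0.05 in both.

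**Figure D2:**
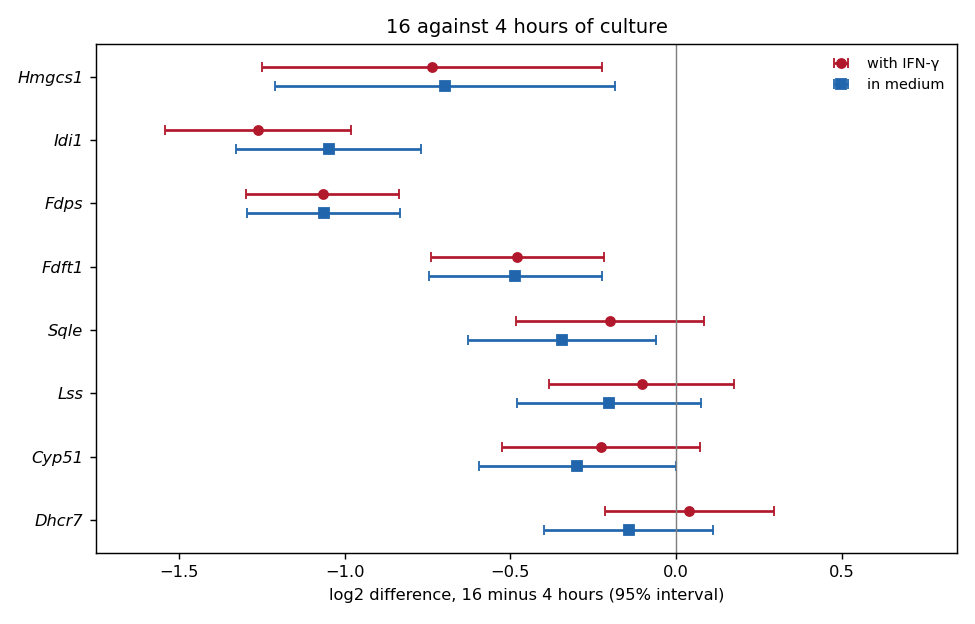
Log2 difference between 16 and 4 hours (horizontal axis) for each of the 8 genes (vertical axis, in the order of the pathway from top to bottom), with IFN-γ as circles and in medium as squares, and 95% intervals of the limma fit as bars. The values run from -1.26 for Idi1 with IFN-γ to 0.04 for Dhcr7 with IFN-γ, and the intervals of Hmgcs1, Idi1, Fdps and Fdft1 lie below 0 in both treatments.

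In the order of the pathway, the enzymes up to squalene (Hmgcs1, Idi1, Fdps and Fdft1) had differences between -1.26 and -0.48, and the enzymes from squalene onward (Sqle, Lss, Cyp51 and Dhcr7) between -0.34 and 0.04. This division was made after the values were seen and was not tested, and 2 of the 4 late genes had weak signal. Other measured enzymes did not follow it throughout. Before squalene, with IFN-γ and in medium, Mvk differed by 0.01 and -0.01 (brightest probe set) and Mvd by -0.28 and -0.43. After squalene, Msmo1 differed by -0.39 and -0.34 and Nsdhl by -0.36 and -0.00. Ebp, Lbr, Tm7sf2, Hsd17b7 and Sc5d lay between -0.25 and 0.08, Hsd17b7 and Sc5d with signal below the antisense controls.

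Other measures moved with culture time. Of 13 measured macrophage and monocyte markers, 10 rose and 1 fell with IFN-γ and 11 rose and 1 fell in medium, where 0.821% and 1.71% of all probe sets were called higher. C1qa, C1qb, C1qc and Lyz2 rose by 1.61 to 2.18, and Spic fell. None was at 0, and Mrc1 was below the antisense controls on every array. The summed intensity of these markers was 3888 and 4842 with IFN-γ at 16 hours and 5483 and 6478 in medium at 16 hours, against 1835 and 1924 with IFN-γ at 4 hours and 2520 and 2684 in medium at 4 hours. That of the 11 dendritic cell markers was 3658 and 4289 with IFN-γ at 16 hours and 3471 and 3683 in medium at 16 hours, against 4805 and 5051 with IFN-γ at 4 hours and 4365 and 4564 in medium at 4 hours. The dendritic cell markers had a median difference of -0.25 with IFN-γ and -0.33 in medium. Of them 1 fell in each, Flt3 with IFN-γ (-0.52) and Irf8 in medium (-0.47), where 1.3% and 2.57% of all probe sets were called lower. With the replicate block 5 fell and 1 rose with IFN-γ, where 6.94% of all probe sets were called lower and 3.2% higher. In medium 5 fell with the block, where 8.09% of all probe sets were called lower. Of the 11 dendritic cell markers, 7 were lower and 4 higher with IFN-γ, and 8 were lower and 3 higher in medium. Ly75, Flt3, Batf3 and Id2 were among those lower in both. Higher in both were Cd24a (0.12 with IFN-γ and 0.24 in medium), Xcr1 (0.30 and 0.16) and Itgae (0.40 and 0.17). Itgae was the 1 that rose with the block. The lowest value in both was that of Ly75, which was not called without the block. It was -1.03 with IFN-γ (adjusted p = 0.218, blocked adjusted p = 0.00438) and -0.99 in medium (adjusted p = 0.197, blocked adjusted p = 0.00408). All 6 measured B cell markers were higher at 16 hours with IFN-γ, with a median of 0.54. Of them 1, Blk, was called, or 6 of 6 with the block, against 0.821% of all probe sets called higher, or 3.2% with the block. In medium the median of the B cell markers was 0.22, with 0 called, or 1 with the block. There 1.71% of all probe sets were called higher, or 4.52% with the block. The haemoglobin gene Hba-a1, an erythroid marker, fell by 0.82 with IFN-γ and by 1.15 in medium. The other 3 of 4 measured erythroid markers were higher at 16 hours in both, without a call. The median of the 4 was 0.06 with IFN-γ and 0.11 in medium. The part of these shifts in the differences of the cholesterol genes was not tested. For Actb the 3' over 5' signal, which reflects the integrity of the RNA, was 1.68 and 1.66 with IFN-γ at 16 hours, against 1.47 and 1.65 with IFN-γ at 4 hours. In medium it was 1.63 and 1.57 at 16 hours, against 2.04 and 2.20 at 4 hours. The same ratio for Gapdh was 0.83 and 0.91 with IFN-γ at 16 hours, against 0.88 and 0.92 with IFN-γ at 4 hours. In medium the Gapdh ratio was 0.89 and 0.83 at 16 hours, against 1.14 and 1.31 at 4 hours. Between the times, with IFN-γ and in medium, Fdps differed by -1.07 and -1.06, Idi1 by -1.26 and -1.05, and Hmgcs1 by -0.74 and -0.70. Fdft1 differed by -0.48 and -0.48, Sqle by -0.20 and -0.34, Cyp51 by -0.23 and -0.30, Lss by -0.10 and -0.20, and Dhcr7 by 0.04 and -0.14. The part of RNA integrity in these differences was not tested.

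The upstream sequences of Hmgcs1, Idi1 and Lss are shown because the first 2 genes were lower at 16 hours on every array, whereas Lss overlapped between the times with IFN-γ. Cyp51 was also lower on every array and Dhcr7 also overlapped with IFN-γ. These genes, which gave weak signal, were searched as well but are not shown. RefSeq promoter entries of build GRCm38.p6 were matched by symbol for 5 of the 8 genes, in 7 entries, and the 250 bases before the annotated start were searched on both strands. The motifs were the sterol regulatory element bound by SREBP, taken as TCACNCCAC, and the CCAAT box bound by NF-Y, a factor that works with SREBP, taken as CCAAT. They do not overlap in these windows. In the sequences below, written 5′ to 3′ on the gene's strand, capitals mark a match on either strand, so that ATTGG is a CCAAT box on the opposite strand.
Hmgcs1, chr13:119690101-119690350, plus strand: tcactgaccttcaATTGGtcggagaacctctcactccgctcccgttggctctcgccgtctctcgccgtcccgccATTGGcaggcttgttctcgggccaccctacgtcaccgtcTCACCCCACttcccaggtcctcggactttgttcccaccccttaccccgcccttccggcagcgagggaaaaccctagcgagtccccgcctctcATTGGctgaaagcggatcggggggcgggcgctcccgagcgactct
Idi1, chr13:8885356-8885605, plus strand: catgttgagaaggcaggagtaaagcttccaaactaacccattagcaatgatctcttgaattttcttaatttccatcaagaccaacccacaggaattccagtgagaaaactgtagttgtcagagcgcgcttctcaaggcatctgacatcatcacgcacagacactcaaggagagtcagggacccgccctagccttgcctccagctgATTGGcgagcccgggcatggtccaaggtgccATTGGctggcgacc
Lss, chr10:76531355-76531604, plus strand: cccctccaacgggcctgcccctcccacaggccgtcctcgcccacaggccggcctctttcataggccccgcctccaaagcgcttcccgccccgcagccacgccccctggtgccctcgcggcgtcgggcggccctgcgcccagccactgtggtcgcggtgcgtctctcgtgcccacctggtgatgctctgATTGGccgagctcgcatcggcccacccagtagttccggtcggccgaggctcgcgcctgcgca
The sterol regulatory element matched in 1 of the 5 genes, Hmgcs1, at 137 to 129 bases before the start. This was 1 of the 7 entries, against 1.053% of all 32851 promoter windows of the same length. The CCAAT box matched in 5 of the 7 entries, against 33.85% of all windows. Each of the 5 genes had an entry with a match, 3 times in Hmgcs1, 2 times in Idi1 and 1 time in Lss. Cyp51 had 1 match to the CCAAT box, and of 3 entries of Dhcr7 1 had 2. These are matches of letters, not sites of binding.

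IFN-γ against medium was compared at each time. At 16 hours the 8 genes had differences between -0.32 and 0.09, with a median of -0.04, and at 4 hours between -0.20 and 0.09, with a median of -0.10. The median of all probe sets was -0.00 and -0.01. By limma, 0 of the 8 were called at 16 hours, where 0.161% of all probe sets were called higher and 0.0966% lower, and 0 at 4 hours, where 0.258% were called higher and 0% lower. At an unadjusted p under 0.05, 1 of the 8 passed at 16 hours and 0 at 4 hours, against 3.43% and 4.02% of all probe sets. With the replicate block the counts were also 0 and 0, where 0.411% of all probe sets were called higher and 0.435% lower at 16 hours, and 1.09% higher and 0.177% lower at 4 hours. The comparisons at 16 and at 4 hours share their medium arrays with the comparison of times in medium. They share their IFN-γ arrays with the comparison of times with IFN-γ.

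The gene at an unadjusted p under 0.05 was Idi1. At 16 hours it was 7.44 and 7.75 with IFN-γ and 7.89 and 7.96 in medium, a difference of -0.32 (95% interval -0.605 to -0.04, adjusted p = 1 without the block and 0.359 with it). In the 4-hour cultures the difference was -0.11 (95% interval -0.39 to 0.17). Fdps differed by 0.09 at 16 hours (95% interval -0.14 to 0.32) and by 0.09 at 4 hours (95% interval -0.14 to 0.32), and both IFN-γ arrays were above both medium arrays at each time. The intervals of Hmgcs1 were the widest, -0.61 to 0.41 at 16 hours and -0.57 to 0.45 at 4 hours. With the replicate block they were -0.35 to 0.15 at 16 hours and -0.31 to 0.19 at 4 hours.

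Among the other genes, Sqle differed by -0.05 at 16 hours (95% interval -0.33 to 0.23) and by -0.19 at 4 hours (95% interval -0.48 to 0.09). Fdft1 differed by -0.10 at both times, Lss by 0.04 and -0.06, Cyp51 by -0.03 and -0.11, and Dhcr7 by -0.02 and -0.20, at 16 and at 4 hours. At 4 hours both IFN-γ arrays lay below both medium arrays in 5 of 8 genes, against 17.9% of all probe sets, and above them in 1, Fdps, against 15.4%. At 16 hours 1 gene, Idi1, was lower on both and 1, Fdps, higher on both, against 9.85% and 9.1% of all probe sets.

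**Figure D3:**
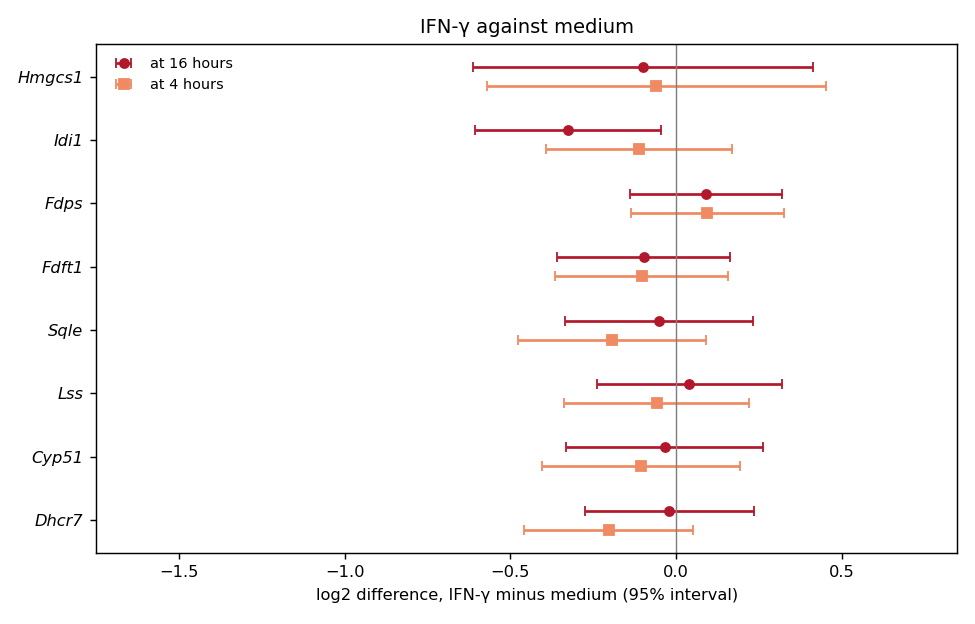
Log2 difference between IFN-γ and medium (horizontal axis, same scale as the plot of times) for each of the 8 genes (vertical axis, in pathway order), at 16 hours as circles and at 4 hours as squares, with 95% intervals of the limma fit as bars. All intervals include 0 except that of Idi1 at 16 hours, -0.605 to -0.04, and none passed the test over all probe sets.

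Whether the IFN-γ effect differed between the times was tested as an interaction, which is also the test of whether the fall with time differed between the treatments. The differences, 16 minus 4 hours, lay between -0.21 for Idi1 (95% interval -0.61 to 0.18) and 0.18 for Dhcr7 (95% interval -0.18 to 0.54), with a median of 0.04. None of the 8 passed, with adjusted p = 1 for each in limma, as 0% of all probe sets did, and at an unadjusted p under 0.05 there were 0 of 8 against 2.84% of all probe sets. With the replicate block 0 of 8 passed, where 0% of all probe sets were called higher and 0.242% lower. For Fdps the difference was -0.00 (95% interval -0.33 to 0.32), and for Hmgcs1 it was -0.04 with an interval of -0.76 to 0.68.

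The 8 genes were set against each other over the 8 arrays, as a description, since arrays of one time share a level. Pearson correlations of the 28 pairs ran from 0.115 for Cyp51 and Dhcr7 to 0.981 for Idi1 and Fdft1, with a median of 0.739. Against the mean of the other 7 genes, r was 0.97 for Idi1 and Fdft1, 0.91 for Fdps, 0.90 for Hmgcs1, 0.88 for Sqle, 0.85 for Cyp51, 0.58 for Lss and 0.31 for Dhcr7. The mean profile of the 8 genes, centred on each gene's mean, was -0.36 and -0.22 with IFN-γ at 16 hours and -0.27 and -0.19 in medium at 16 hours, against 0.17 and 0.25 with IFN-γ at 4 hours and 0.27 and 0.34 in medium at 4 hours.

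Of 3419 probe sets of other named genes at least 1 log2 unit above the antisense median, the 8 most like this profile over the 8 arrays were those of Nsmce3, Laptm4b, Eif2b5, Ncl, Cd83, Selenok, Pum3 and Sfpq, with r between 0.988 and 0.995. Laptm4b, a lysosomal membrane protein, had the largest fall among them, by 1.48 with IFN-γ and 1.53 in medium (adjusted p = 0.000886 and 0.000465), and Cd83, a surface marker of mature dendritic cells, fell by 0.92 and 0.93. In the same ranking the lipogenic genes Scd2 and Fasn stood at 19 and 122, with r of 0.981 and 0.951. The second probe set of Scd2 stood at 321 and Acly at 404. Scd1 stood at 1739, 1793 and 2334, Elovl5 at 1837, Fads1 at 2268 and Gpam at 2454 (r of -0.43). Of the other cholesterol synthesis enzymes, Mvd, the mevalonate pathway decarboxylase, stood at 817 with r of 0.774. Nsdhl stood at 1411 and 2913 (r of 0.51 and -0.71), Lbr at 1860 (0.15) and Mvk at 2195 (-0.20).

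Of 16 other genes of cholesterol synthesis, 10 were measured, and 0 passed in either time comparison without the block, with medians of -0.04 with IFN-γ and -0.01 in medium, beside 0.05 for all probe sets. Mvd, which makes the isoprenoid unit that Idi1 acts on, read 6.84 and 6.70 with IFN-γ at 16 hours and 6.86 and 6.78 in medium at 16 hours, against 7.15 and 6.95 with IFN-γ at 4 hours and 7.40 and 7.10 in medium at 4 hours. It was lower at 16 hours on all arrays, with differences of -0.28 (adjusted p = 0.42) and -0.43 (adjusted p = 0.131, blocked adjusted p = 0.0136). Msmo1, a sterol methyl oxidase above the antisense median on 5 of 8 arrays, differed by -0.39 with IFN-γ (adjusted p = 0.49, blocked adjusted p = 0.0304) and by -0.34 in medium (adjusted p = 0.504, blocked adjusted p = 0.048). Nsdhl, another late enzyme, differed by -0.36 with IFN-γ (adjusted p = 0.216, blocked adjusted p = 0.035) and by -0.00 in medium. The 3 probe sets named Nsdhl disagreed, with 0.03 and 0.13 for the second in brightness and -0.59 (blocked adjusted p = 0.00967) and -0.38 for the dimmest, which exceeded the antisense median on 2 of 8 arrays.

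Among genes of fatty acid synthesis, 12 of 17 were measured, and 1 fell with IFN-γ, where 1.3% of all probe sets were called lower, and 2 fell in medium, where 2.57% were. The medians were -0.01 and -0.08. Scd2, a fatty acid desaturase, read 6.98 and 7.12 with IFN-γ at 16 hours and 6.98 and 7.001 in medium at 16 hours, against 7.97 and 8.01 with IFN-γ at 4 hours and 7.98 and 8.08 in medium at 4 hours. It fell by 0.94 (SE 0.11, adjusted p = 0.00413) and by 1.04 (SE 0.11, adjusted p = 0.0016), with no overlap between the times. Its other probe set differed by -0.30 and -0.52 (blocked adjusted p = 0.00812 in medium). Fasn, the fatty acid synthase, fell in medium (-0.73, adjusted p = 0.0122) and differed by -0.55 with IFN-γ (adjusted p = 0.0555, blocked adjusted p = 0.0104). Acly, which makes cytosolic acetyl-CoA, differed by -0.33 with IFN-γ and by -0.42 in medium (adjusted p = 0.242, blocked adjusted p = 0.016). The desaturase gene Scd1 differed by 0.16 and -0.18, and none of the 12 was called with IFN-γ against medium at either time.

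Of 19 genes of sterol sensing and uptake, 10 were measured, with median differences of 0.12 with IFN-γ and 0.01 in medium. With IFN-γ 2 of them rose with time, where 0.821% of all probe sets were called higher, Lrp1, a lipoprotein uptake receptor (0.67, adjusted p = 0.0236), and Lipa, the lysosomal lipase that frees cholesterol from lipoproteins (0.72, adjusted p = 0.0487). In medium none passed without the block, and Lrp1 differed by 0.49 (adjusted p = 0.0539, blocked adjusted p = 0.00905). Srebf1 read 8.16 and 8.22 with IFN-γ at 16 hours and 8.22 and 7.99 in medium at 16 hours, against 8.44 and 8.32 with IFN-γ at 4 hours and 8.65 and 8.36 in medium at 4 hours. Its difference was -0.19 with IFN-γ and -0.40 in medium (adjusted p = 0.162, blocked adjusted p = 0.0332). Npc1, which moves cholesterol out of lysosomes, differed by 0.25 and by 0.39 (adjusted p = 0.17, blocked adjusted p = 0.0377). Insig1, an SREBP inhibitor, lay between 2.64 and 3.02, below the antisense controls. Srebf2 and Stard4 were not analysed here.

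Of 15 genes of efflux, oxysterols and storage, 11 were measured, and 2 rose with time in medium, where 1.71% of all probe sets were called higher, with median differences of 0.05 with IFN-γ and -0.03 in medium. Apoe, the apolipoprotein that carries cholesterol out of macrophages, read 10.19 and 10.33 with IFN-γ at 16 hours and 11.01 and 11.02 in medium at 16 hours, against 9.85 and 9.61 with IFN-γ at 4 hours and 10.19 and 9.96 in medium at 4 hours. It rose by 0.94 in medium (adjusted p = 0.00571) and differed by 0.53 with IFN-γ (adjusted p = 0.0818, blocked adjusted p = 0.0153), in the same direction as the macrophage markers. Its other probe set, with a mean of 2.36, was too dim to read. Apoc2, another apolipoprotein, rose by 0.93 in medium (adjusted p = 0.0024) and differed by 0.41 with IFN-γ (adjusted p = 0.0978, blocked adjusted p = 0.0166). At 16 hours with IFN-γ against medium, Apoe differed by -0.76 (adjusted p = 0.0728, blocked adjusted p = 0.0111) and Apoc2 by -0.57 (adjusted p = 0.111, blocked adjusted p = 0.0155). Of the 13 macrophage and monocyte markers, 11 were lower with IFN-γ than in medium at 16 hours, with a median of -0.36. Of these, 1, Cd14, was called lower, or 4 with the block. Of all 12422 probe sets, 6355 were lower, and 0.0966% were called lower, or 0.435% with the block. The part of the macrophage markers in the apolipoprotein differences was not tested. At 4 hours Pltp, a phospholipid transfer protein, differed by -0.57 (blocked adjusted p = 0.041).

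The cholesterol exporters did not pass in the time comparisons without the block. Abca1 read 4.28 and 5.32 with IFN-γ at 16 hours and 5.34 and 6.16 in medium at 16 hours, against 5.40 and 5.63 with IFN-γ at 4 hours and 5.68 and 6.23 in medium at 4 hours. It exceeded the antisense median on 3 of 8 arrays, and on neither array with IFN-γ at 16 hours, and its dimmer probe set on 1 of 8. The fitted differences, such as -0.71 with time under IFN-γ (adjusted p = 0.427, blocked adjusted p = 0.0196) and -0.95 between IFN-γ and medium at 16 hours (adjusted p = 1, blocked adjusted p = 0.0227), are therefore of uncertain size. Abcg1 differed by -0.18 with time under IFN-γ and by -0.22 in medium. Ch25h, whose enzyme makes the oxysterol that lowers SREBP processing, lay between 3.33 and 3.63 on all arrays, below the antisense controls, so whether it changed with IFN-γ cannot be read. Of 14 genes that use isoprenoids, 6 were measured and 0 passed in any comparison without the block, with medians of -0.10 with IFN-γ and -0.13 in medium over time. Rabggtb, a subunit of Rab geranylgeranyl transferase, differed by -0.52 with IFN-γ (adjusted p = 0.192, blocked adjusted p = 0.00816) and by -0.43 in medium (adjusted p = 0.252, blocked adjusted p = 0.0165).

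**Figure D4:**
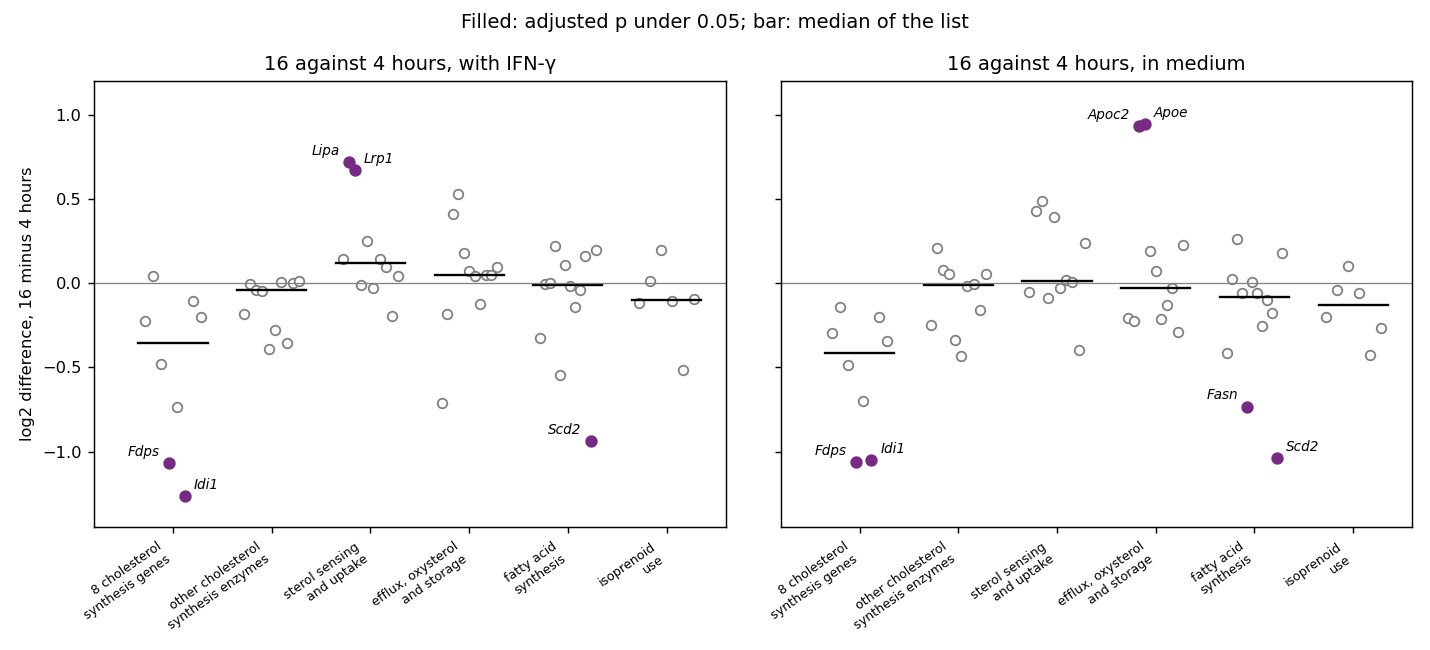
Log2 difference between 16 and 4 hours (vertical axis) for the 8 genes and the 5 other gene lists (horizontal axis, 1 point per gene), with IFN-γ on the left and in medium on the right. Filled points passed at an adjusted p under 0.05 and are named, and bars are medians, which lie at -0.35 and -0.41 for the 8 genes and between -0.13 and 0.12 for the other lists.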

How the data were processed

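Intensity per probe set, on a linear scale by its range, is what the authors deposited. The submitters' processing notes name RMA, of which version and settings are not given in the sources used here. Of 12488 probe sets, 66 controls were dropped. Platform annotation, updated through RefSeq gene numbers, supplied gene names. Values were log2 transformed, with no pseudocount or further normalization, and the brightest probe set, by mean over the arrays, stood for a gene.

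Group means were fitted over all 8 arrays with limma 3.58.1 in R 4.3.3 (lmFit and eBayes, two-sided). Benjamini-Hochberg adjustment ran over 12422 probe sets in each of 5 comparisons, and an adjusted p under 0.05 was a call. The fit was tested on simulated data. This main fit had no replicate block, and calls, intervals and adjusted p-values come from it unless the block is named. Gaps between arrays 1 and 2 correlated in all 6 pairs of groups (r = 0.367 to 0.740). A second fit therefore treated replicate numbers as pairs, by a block. The pairing in it rests on the data, as no label states it. Values with the number as a block stand beside the named results whose call they change.

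All probe sets of the 8 genes are given. For the other lists, counts, up to 4 called genes and fixed genes (such as Srebf1, Ch25h and Abca1) are given. Genes called only with the block, among them Mvd, Msmo1, Acly and Rabggtb, marker genes and second probe sets were named after their values were seen. The 8 genes, the lists and the motifs were chosen with earlier results of these data known. Alternatives were quantile normalization, median centring, a filter on dim probe sets, a trended and robust prior, fits of the 4 arrays compared, the block, each array left out, a pseudocount of 16, 1 mean value per gene, the dimmest probe set, and, added after seeing the data, leaving out array 1 of both 16-hour groups.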

Additional observations from a re-analysis of the deposited data

How the results depend on the processing

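Of the 8 genes, 2 were called in each time comparison. With IFN-γ this count became 4 with the replicate block and 1 with the dimmest probe set of each gene, and in medium 5 with the block, 4 with only the 4 arrays compared and 1 with the dimmest probe set. With single arrays left out it ranged from 2 to 4 in both, and the 4 with IFN-γ came without IFN-γ 16 h replicate 2, and the 4 in medium without IFN-γ 16 h replicate 1 or 2. A lone array was assumed to vary like the others. Idi1 was called under all 18 alternatives in both time comparisons, and Fdps under 17 of 18, its dimmest probe set (-0.13 with IFN-γ, 0.10 in medium), which is below the antisense controls, being the exception. Whether Hmgcs1 and Fdft1 were called varied with the alternative, and not with the block alone. Under all 18 alternatives both were lower at 16 hours. Hmgcs1 ranged from -1.06 to -0.41 with IFN-γ and from -0.93 to -0.47 in medium. Fdft1 ranged from -0.59 to -0.37 with IFN-γ and from -0.54 to -0.43 in medium. Called genes of the other lists, by the block, numbered 2 and 2 for cholesterol synthesis (IFN-γ, medium), all lower. They numbered 2 and 3 for fatty acids and 1 and 1 for isoprenoid use, all lower. Of sensing and uptake in medium 2 were called higher and 1 lower, and of efflux with IFN-γ 2 higher and 1 lower. Of all probe sets the block called 6.94% lower and 3.2% higher with IFN-γ, and 8.09% lower and 4.52% higher in medium. For efflux with IFN-γ against medium, the block called 3 lower at 16 hours and 1 at 4 hours, against 0.435% and 0.177% of all probe sets. With quantile normalization, 1 was called for sensing in medium, 1 for efflux with IFN-γ over time and 1 for efflux at 16 hours.

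Signs turned for values near 0, none of which was called, and by the dimmest probe set of Fdps in medium. The cause was not tested. For IFN-γ against medium at 16 hours, leaving out array 1 of both 16-hour groups gave 0.011 for Sqle, 0.062 for Fdft1, -0.14 for Lss and 0.011 for Dhcr7, and the dimmest probe set gave -0.13 for Fdps. With single arrays left out, that comparison ranged from -0.42 to 0.22 for Hmgcs1, -0.15 to 0.047 for Sqle, -0.21 to 0.011 for Fdft1, -0.070 to 0.0012 for Cyp51, -0.10 to 0.18 for Lss and -0.058 to 0.018 for Dhcr7. At 4 hours it ranged from -0.19 to 0.074 for Hmgcs1 and -0.27 to 0.056 for Cyp51. For 16 against 4 hours with IFN-γ, Lss ranged from -0.25 to 0.040, and quantile normalization gave -0.027 for Dhcr7. For the difference of IFN-γ effects, quantile normalization gave -0.012 for Fdft1, median centring 0.014 for Fdps, and leaving out array 1 of both 16-hour groups 0.051 for Hmgcs1 and -0.082 for Lss. With single arrays left out it ranged from -0.035 to 0.029 for Fdps, -0.36 to 0.28 for Hmgcs1, -0.10 to 0.11 for Fdft1, -0.090 to 0.23 for Cyp51 and -0.046 to 0.24 for Lss.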
